A study of Mus musculus with 18 samples.

Results

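Integrin and laminin subunits were followed in mouse dorsal root ganglia, which hold the cell bodies of sensory neurons, after injury of their axons. The members were all genes of the deposited count table whose symbol is that of an integrin alpha or beta subunit (Itga, Itgb) or of a laminin alpha, beta or gamma chain (Lama, Lamb, Lamc). There were 35 such genes among 15730, namely 17 integrin alpha subunits, 8 integrin beta subunits and 10 laminin chains. All 35 passed the filter on low counts. Their mean counts per sample ran from 17.3 for Itgax to 8832.5 for Itgb1.

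RNA came from ganglia of the sciatic nerve of C57BL/6 mice aged 6 to 8 weeks, taken 24 hours after surgery. There were 6 groups of 3 samples, and each sample pooled the ganglia of 2 mice. SNA_Saline was sciatic nerve injury with saline, and Sham_Saline was its sham operation with saline. SNA_NAC was the same nerve injury with N-acetyl-cysteine at 30 mM, an antioxidant that supplies thiol groups. Sham_H202 (spelled here as in the labels) was the sham operation with 13 mM hydrogen peroxide. DCA was injury of the spinal dorsal columns, which hold the central branches of these neurons, and LAM was laminectomy, the bone removal that exposes the cord. No genetic change is named for any group. Neither the mice in a pool nor the cells in a ganglion can be separated in these values. In such whole-tissue RNA, fewer cells of a type and less RNA per cell cannot be told apart.

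An integrin is a pair of 1 alpha and 1 beta subunit that spans the cell membrane and ties the matrix outside to the cytoskeleton inside. Laminins are trimers of an alpha, a beta and a gamma chain and are main components of basement membranes, including the sheath that each Schwann cell lays around its axon. Axons of sensory neurons grow well on laminin, which they bind through Itgb1 joined to Itga3, Itga6 or Itga7. Itga6 can also join Itgb4, found in nerve on Schwann and perineurial cells.

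The member that passed the test after sciatic nerve injury was Itgb1 (ENSMUSG00000025809), the beta subunit shared by most matrix receptors. It lies on chromosome 8, from 128685654 to 128733200 on the plus strand (GRCm38, GENCODE M21). The 250 bases just upstream of its start, chr8:128685404-128685653 on the plus strand, are shown because this is the promoter of the called member (RefSeq, GRCm38.p6). Capitals mark a GC box, GGGCGG, whose first base lies 151 bases before the start.
Itgb1: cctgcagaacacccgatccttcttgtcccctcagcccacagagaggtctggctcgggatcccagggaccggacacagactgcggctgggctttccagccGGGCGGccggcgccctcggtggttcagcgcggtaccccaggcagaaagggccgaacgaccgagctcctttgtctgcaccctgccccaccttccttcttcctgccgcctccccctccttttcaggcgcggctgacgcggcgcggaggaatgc
The GC share of this stretch was 68.0%. Among the 250-base upstream stretches of 32851 promoters in the RefSeq table, 32.7% held GGGCGG on either strand. Of the 22 members that the table covers, 8 held it (Itga3, Itga4, Itga5, Itgam, Itgb1, Itgb5, Lama5 and Lamb1). The percentages count promoters, but the members count as genes with a match in any of their promoters, so the figures differ in unit. The AP-1 motif TGANTCA was in 6.75% of all promoters and in 1 of the 22 members, Itgax. The CRE motif TGACGTCA was in 1.55% of all promoters and in 0 of the 22. A match in these letters is a description of the window only.

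Total counts per sample ran from 6472476 to 42435331. The cell type markers were summed over each list in CPM, counts divided by each sample's scaled total, with a sum above 0 for every list in every sample. The 8 sensory neuron markers ran from 5263 to 11477, the 6 Schwann cell markers from 6958 to 11063 and the 6 satellite glia markers from 2363 to 3349. The 7 endothelial markers ran from 103 to 126, the 6 mural cell markers from 322 to 505, the 6 fibroblast markers from 835 to 1509 and the 10 macrophage markers in the table from 73.2 to 119. The 8 neutrophil markers ran from 232 to 599, 4 platelet markers from 6.82 to 13.7 and 4 lymphocyte markers, all of B cells, from 4.32 to 11.7. The 8 skeletal muscle markers stood apart in 1 library, with 1259 CPM in Sham_Saline replicate 2 against 7.26 to 497 in the other 17. The samples also differed in how level follows the GC share of a gene's transcript. The slope of log2 CPM per SD of GC share ran from -0.22 in Sham_H202 replicate 3 to 0.43 in Sham_Saline replicate 2.

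Levels between genes were compared in the deposited FPKM, which divides reads by gene length. In Sham_Saline 17 of the 35 members reached 1 FPKM and 4 reached 10 FPKM. Itgb1 was the most abundant, at 81.3 to 117 FPKM in the 3 samples, with a mean of 96.6. Next came its laminin-binding partner Itga7 at a mean of 33.0 FPKM, whose samples did not overlap those of Itgb1. Itgb8 (11.1 FPKM), which with Itgav activates latent TGF-beta, Itga6 (11.1 FPKM) and Itga3 (9.58 FPKM) followed, and their samples overlapped. The most abundant laminin chains were Lamb1 at 9.45 FPKM and Lamc1 at 6.82 FPKM. Lama4 stood at 3.60, Lama2 at 3.59 and Lamb2 at 3.38 FPKM, with overlapping samples.

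The leukocyte integrin subunits were scarce. Itgb2, the beta subunit of leukocyte integrins, measured 1.93 FPKM in Sham_Saline, its macrophage and neutrophil partner Itgam 1.19 FPKM and its lymphocyte partner Itgal 0.421 FPKM. The lowest 3 members were Lama3, a laminin chain of epithelia, at 0.211 FPKM, Itgax, a dendritic cell and macrophage subunit, at 0.167 FPKM, and Itgae, a subunit of mucosal T cells, at 0.159 FPKM.

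**Figure D1:**
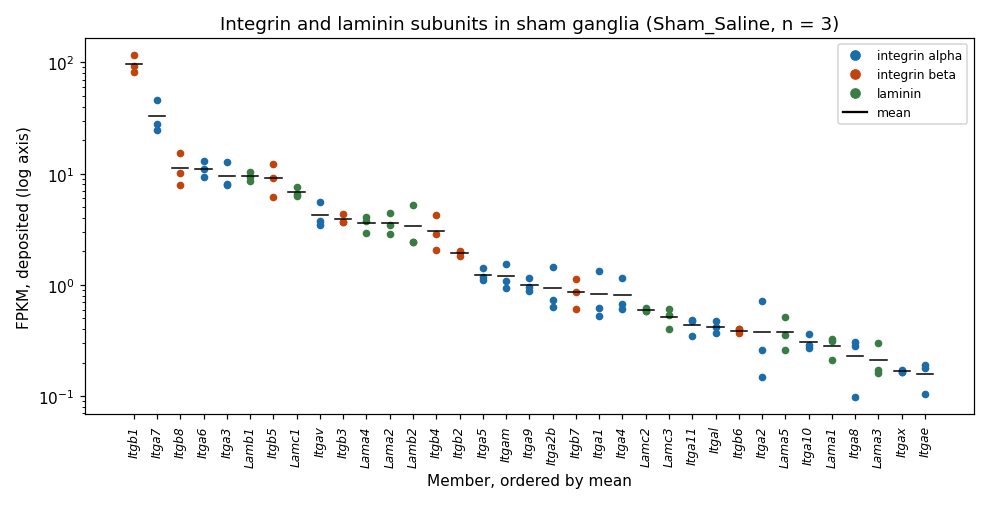
Deposited FPKM (log axis) of the 35 integrin and laminin members in the 3 Sham_Saline samples, as points with the mean as a bar, ordered by mean and coloured by family. Itgb1 stands highest at a mean of 96.6 FPKM, Itga7 second at 33.0 FPKM, and 18 members lie under 1 FPKM.

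Sciatic nerve injury with saline was compared with its sham to find which subunits respond to peripheral axotomy. Itgb1 measured 474, 335 and 369 CPM in the 3 Sham_Saline samples and 590.4, 634 and 506 CPM in the 3 SNA_Saline samples. Every injured sample was above every sham sample. Itgb1 rose by 0.55 log2 units with an SE of 0.13, or 1.47-fold (edgeR quasi-likelihood test with Benjamini-Hochberg adjustment over all genes, adjusted p = 0.0318, n = 3 each). It was the 1 member of 35 past the threshold of 0.05, against 2.73% of all genes tested. At an unadjusted p under 0.05 there were 9 members, against 22.5% of all genes. The call depended on the samples in the fit. The adjusted p of Itgb1 was 0.304 in a fit of the 6 samples alone, and over the fits that leave out 1 sample it ran from 0.00405 to 0.170. It was above 0.05 without Sham_Saline replicate 2 or 3, SNA_Saline replicate 1 or 2, or LAM replicate 2. Without Sham_Saline replicate 1, 6 members were called (Itgav, Itgb1 and Itgb8 higher, Itgb4, Itgb5 and Itgb7 lower). They were among 2548 genes called in that fit, of the 15730 in the table.

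Itga7 (ENSMUSG00000025348), on chromosome 10 from 128933818 to 128958282, is the alpha partner of Itgb1 known from skeletal muscle and from regrowing axons. It measured 98.4, 187 and 111 CPM in Sham_Saline and 209, 175 and 249 CPM in SNA_Saline. The injured samples were above 2 of the 3 sham samples, and Sham_Saline replicate 2 lay above 1 of them. That sham sample is the one with 1259 CPM of muscle markers, and the part of muscle RNA in its Itga7 level was not tested. The log2 fold change was 0.67 with a 95% interval from 0.12 to 1.23 (edgeR adjusted p = 0.169). Over the fits that leave out 1 sample it ran from 0.50 to 1.01 (edgeR adjusted p from 0.0684 to 0.392).

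Itgav (ENSMUSG00000027087), on chromosome 2 from 83724397 to 83806916, is the alpha subunit of vitronectin and fibronectin receptors. It measured 60.1, 37.8 and 39.6 CPM in Sham_Saline and 71.1, 72.8 and 58.2 CPM in SNA_Saline. The groups overlapped in 1 pair of samples, Sham_Saline replicate 1 and SNA_Saline replicate 3. Its log2 fold change was 0.55 (SE 0.19, edgeR adjusted p = 0.125). Itga11 went the other way, with 2.24 ± 0.415 CPM in Sham_Saline and 1.01 ± 0.637 CPM in SNA_Saline (SD, n = 3 each). Its groups did not overlap, on 7 to 60 counts, and its log2 fold change was -1.15 (edgeR adjusted p = 0.118). Itgb5 was at -0.51 (edgeR adjusted p = 0.19) and Itgb8 at 0.48 (adjusted p = 0.229).

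Of the other laminin-binding alpha subunits, Itga6 measured 117, 84.3 and 97.1 CPM in Sham_Saline and 122, 128 and 92.5 CPM in SNA_Saline (log2 fold change 0.20, 95% interval -0.12 to 0.51). Itga3 measured 45.2, 73.4 and 45.1 CPM in Sham_Saline and 45.4, 37.5 and 59.7 CPM in SNA_Saline (log2 fold change -0.20, 95% interval -0.79 to 0.39). Both pairs of groups overlapped. Itgb4, the partner of Itga6 in Schwann and perineurial cells, measured 14.5, 30.2 and 19.6 CPM in Sham_Saline and 10.1, 9.30 and 14.3 CPM in SNA_Saline. Its groups did not overlap, though the lowest sham and the highest injured sample lay close. Its log2 fold change of -0.93 did not pass (edgeR adjusted p = 0.131), and without Sham_Saline replicate 2 it was -0.60.

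The laminin chains gave 0 calls of 10 after sciatic injury, and their median log2 fold change was -0.10 against -0.03 over all genes. Lamb1 measured 93.3 ± 8.44 CPM in Sham_Saline and 97.2 ± 4.76 CPM in SNA_Saline (SD, n = 3 each). Its log2 fold change was 0.06, with a 95% interval from -0.14 to 0.26. Lama4 had a log2 fold change of 0.0097 (95% interval -0.24 to 0.26), and Lama2, the chain of Schwann cell and muscle basement membranes, -0.02 (95% interval -0.37 to 0.33). The intervals of these 3 chains end below 0.55, the estimate of Itgb1, which has a spread of its own. Itgb1 was not tested against these chains. Lamc1 measured 63.0, 54.5 and 51.0 CPM in Sham_Saline and 45.3, 45.6 and 48.7 CPM in SNA_Saline, without overlap (log2 fold change -0.27, edgeR adjusted p = 0.225). Lamb2, a beta chain known from the neuromuscular junction, measured 13.7, 29.9 and 13.4 CPM in Sham_Saline and 6.93, 7.78 and 13.6 CPM in SNA_Saline, with 1 overlapping sample (log2 fold change -1.01, edgeR adjusted p = 0.176). The highest of these values is that of Sham_Saline replicate 2, the library with 1259 CPM of muscle markers and the steepest GC slope, and without it the log2 fold change was -0.51. Lama5 had a log2 fold change of -0.55 (95% interval -1.25 to 0.14).

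The leukocyte subunits gave no call. Itgam measured 7.56 ± 1.95 CPM in Sham_Saline and 8.56 ± 0.853 CPM in SNA_Saline (SD, n = 3 each). Itgb2 measured 5.88 ± 0.343 and 4.06 ± 0.803 CPM, and Itgal 2.67 ± 0.314 and 1.93 ± 0.477 CPM (SD, n = 3 each), both without overlap and with edgeR adjusted p of 0.223 and 0.269. The summed macrophage markers were 101 ± 19.2 CPM in Sham_Saline and 106 ± 4.85 CPM in SNA_Saline, and the summed neutrophil markers 453 ± 129 and 457 ± 112 CPM (SD, n = 3 each). The 4 B cell markers summed to 9.68, 11.7 and 10.04 CPM in Sham_Saline and to 5.87, 4.32 and 9.62 CPM in SNA_Saline. These groups did not overlap, though the lowest sham and the highest injured sample lay close. The part of B cells in the levels of Itgal and Itgb2 was not tested.

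Over all members, 12 had a positive and 23 a negative log2 fold change after sciatic injury, with a median of -0.18 against -0.03 over all genes. The groups did not overlap in 3 members that were higher (Itgb1, Itgae and Itgax), against 10.3% of all genes, and in 6 that were lower (Itga11, Itgal, Itgb2, Itgb4, Itgb7 and Lamc1), against 8.8% of all genes. The fold changes followed the GC share of the members' transcripts, with a Pearson r of -0.50 over the 35 members, which share these libraries, and -0.53 over 15648 genes. Itgb1 has a GC share of 44.8%, Itgav 43.5%, Itgb4 60.0% and Lamb2 58.8%. Itga7, at 57.8%, lies among the members of high GC share, though its fold change was positive. In a fit that corrects for the GC share and length of transcripts by offsets, added after seeing the data, 17 members were positive and 18 negative. Itgb1 then had a log2 fold change of 0.42 (edgeR adjusted p = 0.000568), Itga7 1.14 (adjusted p = 1.75e-06) and Itgav 0.42 (adjusted p = 0.00759). These were the 3 members called in that fit, which called 7.44% of all genes. Among members with negative values above, Itgb4 was at -0.37 in that fit, Lamb2 at -0.49, Lamc1 at -0.08 and Itgal at -0.31. Itga11 was at -0.85, Itgb5 at -0.09, Lama5 at 0.024 and Itga3 at 0.25. None of these was called.

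**Figure D2:**
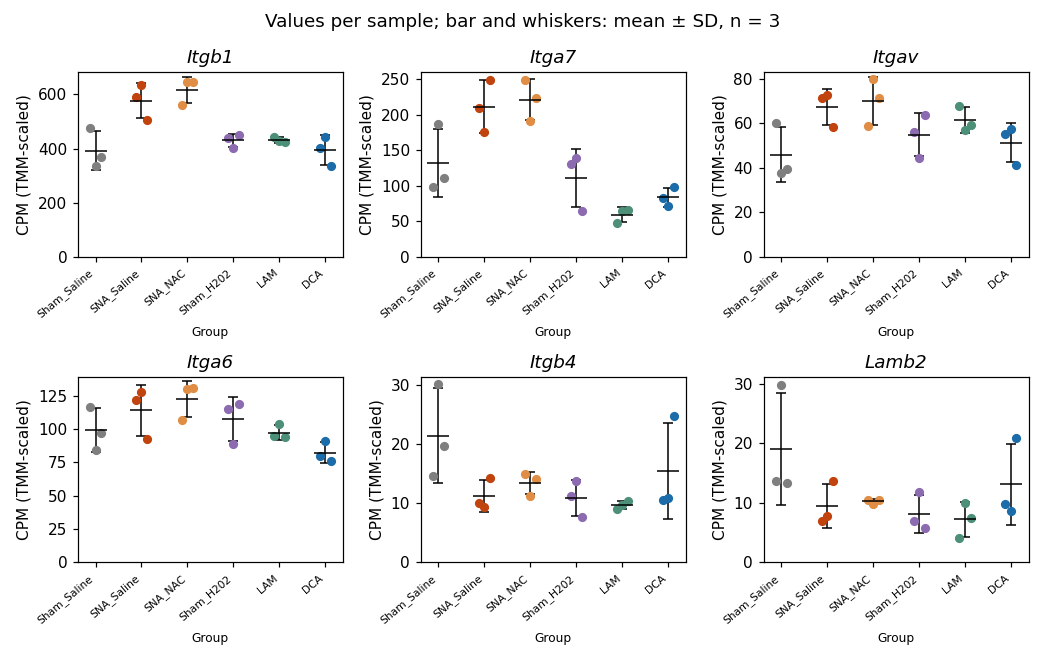
CPM after scaling of selected members in each of the 18 samples (1 point per sample, with the group mean ± SD), by group. All 6 samples with sciatic injury have more Itgb1 (506 CPM or more) than any of the other 12 (474 CPM or less).

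**Figure D3:**
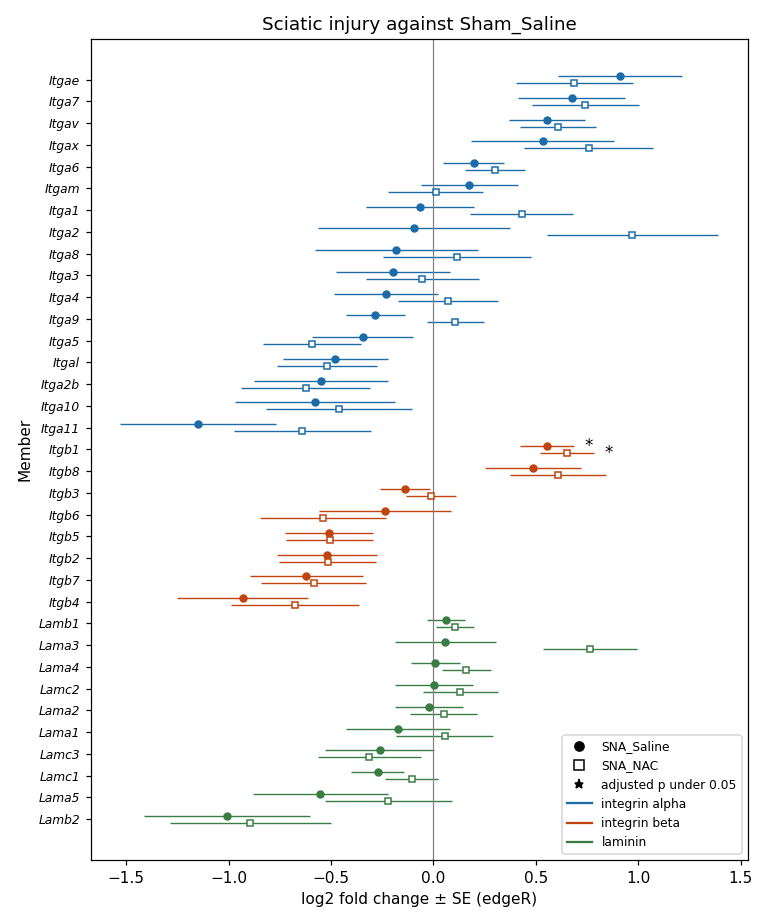
Log2 fold changes (± SE, edgeR) of the 35 members in SNA_Saline (filled circles) and SNA_NAC (open squares), each against the same Sham_Saline samples, coloured by family. Itgb1 carries the stars of an adjusted p under 0.05, at 0.55 and 0.65, and the open square of Lama3 lies at 0.77.

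**Figure D4:**
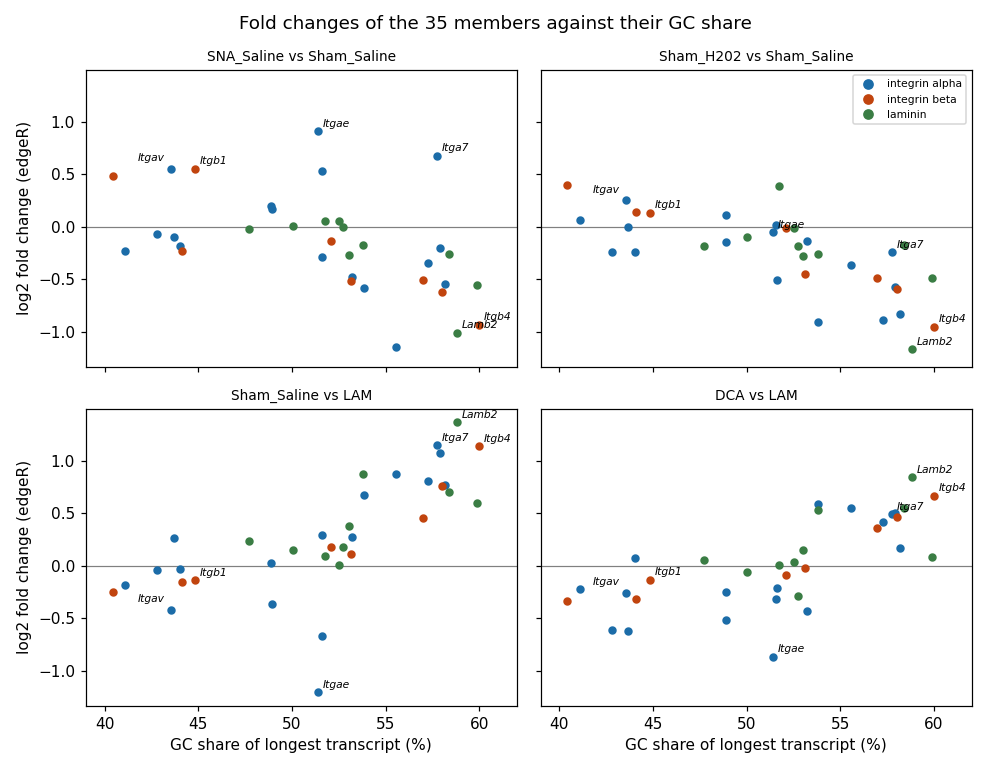
Log2 fold change of each of the 35 members against the GC share (%) of its longest transcript, in 4 comparisons, coloured by family. Members of high GC share such as Itgb4 (60.0%) sit low in SNA_Saline and Sham_H202 against Sham_Saline and high in Sham_Saline and DCA against LAM, and Itga7 lies above the others of its GC share after sciatic injury.

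The antioxidant was tested by comparing SNA_NAC with SNA_Saline, both after sciatic injury. Itgb1 measured 562, 644 and 646 CPM in SNA_NAC, which overlapped the 506 to 634 CPM of SNA_Saline. The log2 difference was 0.10 with a 95% interval from -0.18 to 0.38. Itga7 measured 249, 191 and 224 CPM in SNA_NAC, a log2 difference of 0.07 (95% interval -0.49 to 0.62). With edgeR 0 of 35 members and 0% of all genes passed, and 3 members had an unadjusted p under 0.05 (2% of all genes). DESeq2 also called 0 genes.

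The smallest p in that comparison was that of Lama3 (ENSMUSG00000024421), the laminin alpha chain of epithelia. It measured 2.71, 1.95 and 2.14 CPM in SNA_Saline, on 18 to 41 counts, and 3.93, 3.19 and 4.02 CPM in SNA_NAC, on 51 to 166 counts. The groups did not overlap, and the log2 fold change was 0.71 (SE 0.24, edgeR adjusted p = 1.00). Itga9, part of a tenascin receptor, came second. It measured 8.20 ± 0.823 CPM with the antioxidant against 6.25 ± 0.492 CPM in SNA_Saline (SD, n = 3 each), with a log2 fold change of 0.39 (edgeR adjusted p = 1.00, and 0.24 log2 units with the GC and length offsets). Of the members, 28 were higher and 7 lower with the antioxidant, with a median log2 fold change of 0.12 against -0.0026 over all genes. With the GC and length offsets 24 were higher and 11 lower, with a median of 0.05 against -0.01 over all genes. Groups did not overlap in 6 members that were higher (Itga1, Itga2, Itga9, Lama3, Lama4 and Lamc1; 9.24% of all genes) and in 0 that were lower (5.63% of all genes).

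Against Sham_Saline, SNA_NAC gave Itgb1 as its 1 call of 35, against 3.32% of all genes. At an unadjusted p under 0.05 there were 15 members, against 27.6% of all genes. Itgb1 rose by 0.65 log2 units with an SE of 0.13, or 1.57-fold (edgeR adjusted p = 0.0104). This comparison uses the same sham samples as the one with saline, so the 2 are not independent. The adjusted p was 0.184 with only the 6 samples in the fit, and it was above 0.05 without Sham_Saline replicate 2 or 3 or SNA_NAC replicate 2 or 3 (0.0694 at most). Without Sham_Saline replicate 1, 11 members were called, among 5861 called of the 15730 genes in the table. Itga7 had a log2 fold change of 0.74 (edgeR adjusted p = 0.113), Itgav 0.61 (adjusted p = 0.0838) and Lama3 0.77 (adjusted p = 0.0766). With the GC and length offsets these 3 and Itgb1 were called, against 7.79% of all genes. Itga7 was then at 1.22 (edgeR adjusted p = 6.44e-07) and Itgav at 0.30 (adjusted p = 0.0463). Adding the replicate block to the offsets lost the call of Itgav (adjusted p = 0.0628). The members split into 19 positive and 16 negative, with a median of 0.05 against -0.01 over all genes. The groups did not overlap in 5 members that were higher (Itga7, Itgae, Itgax, Itgb1 and Lama3; 11.5% of all genes) and in 6 that were lower (Itga10, Itga5, Itgal, Itgb2, Itgb6 and Lamb2; 9.68% of all genes). The 4 B cell markers summed to 5.38 ± 0.599 CPM in SNA_NAC against 10.5 ± 1.06 CPM in Sham_Saline, and the neutrophil markers to 264 ± 42.1 against 453 ± 129 CPM (SD, n = 3 each). Their part in the levels of Itgal and Itgb2 was not tested.

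Hydrogen peroxide was tested without nerve injury, in Sham_H202 against Sham_Saline. Itgb1 measured 438, 402 and 449.9 CPM in Sham_H202, inside the range of Sham_Saline, with a log2 fold change of 0.13. Itga7 measured 130.4, 139 and 64.8 CPM in Sham_H202, also overlapping the sham samples, with a log2 fold change of -0.24. With edgeR 0 of 35 members and 0% of all genes passed, 7 members had an unadjusted p under 0.05 (9.15% of all genes), and DESeq2 called 4 genes, none a member.

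The smallest p after peroxide belonged to Itga5, the alpha subunit of the main fibronectin receptor. It measured 5.10, 6.23 and 4.75 CPM in Sham_Saline and 2.33, 3.44 and 2.70 CPM in Sham_H202, without overlap (log2 fold change -0.88, SE 0.26, edgeR adjusted p = 0.449). Itgb4 measured 11.3, 13.7 and 7.63 CPM in Sham_H202, all under the sham samples (log2 fold change -0.95, edgeR adjusted p = 0.449). Of the members, 8 were positive and 27 negative, with a median of -0.19 against -0.02 over all genes. Of all genes, 7464 were positive and 8266 negative. Groups did not overlap in 7 members that were lower (Itga10, Itga5, Itgax, Itgb2, Itgb4, Lamb2 and Lamc1), against 3.27% of all genes, and in 0 that were higher, against 2.16%. The 4 B cell markers summed to 6.53 ± 1.14 CPM in Sham_H202 against 10.5 ± 1.06 CPM in Sham_Saline, and the macrophage markers to 89.0 ± 13.9 against 101 ± 19.2 CPM (SD, n = 3 each). Their part in the levels of Itgb2 and Itgax was not tested. GC share moved with these values, with r of -0.71 over the 35 members and -0.60 over 15648 genes, and with the GC and length offsets the members' median was -0.05. Itga5 was then at -0.54, Itgb4 at -0.46, Itgb1 at 0.031 and Itga7 at 0.18.

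Dorsal column injury was compared with laminectomy to see whether injury of the central branch alters the same genes. Itgb1 measured 444, 427 and 425 CPM in LAM and 403, 444 and 335 CPM in DCA. The log2 fold change was -0.13, with a 95% interval from -0.41 to 0.15. Itga7 measured 47.3, 64.6 and 66.7 CPM in LAM and 82.6, 71.1 and 98.1 CPM in DCA, without overlap (log2 fold change 0.49, 95% interval -0.07 to 1.05, edgeR adjusted p = 0.624). With the GC and length offsets its log2 fold change was 0.18, and that of Itgb1 was -0.024. With edgeR 0 of 35 members and 0% of all genes passed, 4 members had an unadjusted p under 0.05 (5.04% of all genes), and DESeq2 called 2 genes, none a member.

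Itgae and Itga1 had the smallest p in that comparison. Itgae measured 1.66, 1.84 and 1.54 CPM in LAM and 0.980, 0.683 and 1.01 CPM in DCA (log2 fold change -0.87, edgeR adjusted p = 0.624), on 8 to 46 counts per library. Itga1, the alpha subunit of a collagen receptor, measured 3.36 ± 0.457 CPM in DCA against 5.09 ± 0.660 CPM in LAM (SD, n = 3 each), a difference of -0.61 log2 units (edgeR adjusted p = 0.624). Neither pair of groups overlapped. Of the members 18 were positive and 17 negative, and groups did not overlap in 6 that were higher (11.9% of all genes) and 8 that were lower (9.85% of all genes). The fold changes followed GC share with r of 0.70 over the 35 members and 0.60 over all genes.

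The change after sciatic injury minus the change after dorsal column injury was tested as 1 term. Itgae (ENSMUSG00000005947), on chromosome 11 from 73090583 to 73147446, was the 1 member of 35 that passed, against 1.61% of all genes. At an unadjusted p under 0.05 there were 13 members, against 31.4% of all genes. Its difference was 1.78 log2 units (SE 0.41, edgeR adjusted p = 0.0401). It measured 0.477, 0.884 and 0.814 CPM in Sham_Saline and 1.32, 1.08 and 1.64 CPM in SNA_Saline, on 10 to 23 counts, so its levels were higher in the injured samples there and lower in DCA than in LAM. Blocking on the replicate number gave an adjusted p of 0.0637. The call was lost in 15 of 24 alternative fits, among them 13 of the 18 that left out 1 sample, and the adjusted p over these 18 ran from 0.0207 to 0.110. The 4 lymphocyte markers counted here are B cell genes. After dorsal column injury they summed to 7.61 ± 2.38 CPM against 6.91 ± 1.86 CPM after laminectomy (SD, n = 3 each). The T cell markers Cd3e and Cd3d were on the list but had no row under these symbols in the count table. A link of Itgae to T cells was not tested.

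For Itgb1 the same term was 0.69 (edgeR adjusted p = 0.0673), for Itgav 0.81 (adjusted p = 0.0882) and for Itga7 0.18 (adjusted p = 0.758). For Itgb1, then, the difference between the injuries itself did not pass, though it was called after the one and not after the other. With the GC and length offsets 4 members passed, against 5.11% of all genes. They were Itga7 at 0.96 (edgeR adjusted p = 0.00101), Itgav at 0.53 (adjusted p = 0.0231), Itgb1 at 0.44 (adjusted p = 0.0117) and Itgae. Without Sham_Saline replicate 1 there were 12 member calls, among 4600 called of the 15730 genes in the table.

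The controls of the 2 injuries were also compared with each other. Itga7 was at 98.4 to 187 CPM in Sham_Saline and at 47.3 to 66.7 CPM in LAM, without overlap (log2 fold change 1.15, SE 0.27, edgeR adjusted p = 0.104). Itga3 had a log2 fold change of 1.07 between the same groups (edgeR adjusted p = 0.104), and Itgae, with 0.477 to 0.884 CPM in Sham_Saline and 1.54 to 1.84 CPM in LAM, -1.21 (adjusted p = 0.104). Itgb1 differed by -0.14. With edgeR 0 of 35 members passed, against 0.0699% of all genes. At an unadjusted p under 0.05 there were 14 members, against 30.3% of all genes. DESeq2 called 5 members, Itga3, Itga5, Itga7, Itgb4 and Lamb2, all higher in Sham_Saline. Over the whole table it called 1141 genes, 867 of them higher and 274 lower in Sham_Saline. Without Sham_Saline replicate 1 edgeR called 12 members, among 5009 called of the 15730 genes in the table.

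In the same comparison of controls, 25 members were higher in Sham_Saline and 10 lower, with a median of 0.24 against 0.02 over all genes. Of all genes, 8223 were higher and 7507 lower. Groups did not overlap in 12 that were higher (16.4% of all genes) and in Itgae and Itgax, which were lower (14.2% of all genes). GC share moved with the difference, with r of 0.70 over the 35 members and 0.65 over 15648 genes. With the GC and length offsets the median was 0.05. Itga7 was then the 1 member called, at 0.55 (edgeR adjusted p = 0.0464), against 0.165% of all genes. That call was lost when the replicate block was added to the offsets (adjusted p = 0.0819). Itga3 was at 0.47 with the offsets.

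The make-up of the subunit families was described as shares of summed FPKM, with no test. Itga7 held 60.5% ± 6.88 of the 3 laminin-binding alpha subunits Itga3, Itga6 and Itga7 in Sham_Saline and 71.2% ± 3.63 in SNA_Saline. It held 70.6% ± 2.14 in SNA_NAC, 58.9% ± 8.38 in Sham_H202, 48.95% ± 3.42 in LAM and 57.1% ± 3.71 in DCA (SD, n = 3 each). The 3 Sham_Saline samples ran from 54.0% to 67.7% and the 3 SNA_Saline samples from 67.8% to 75.0%, so these groups lay side by side without overlapping. The share of Itga3 was 17.7% ± 0.863 in Sham_Saline and 11.2% ± 1.25 in SNA_Saline (SD, n = 3 each). Transcripts of Itga7 and Itga3 have GC shares of 57.8% and 57.9%, against 48.9% for Itga6. The FPKM carry no GC correction, and the part of GC share in this make-up was not tested.

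Among the laminin alpha chains Lama2 and Lama4 together made up most of the FPKM in every group. Lama2 held 44.3% ± 2.75 in Sham_Saline and 44.8% ± 2.70 in SNA_Saline, and Lama4 44.7% ± 2.38 and 45.9% ± 0.0274 (SD, n = 3 each). Lamc1 held 84.7% to 86.6% of the gamma chains as a group mean. Lamb1 held 74.3% ± 9.14 of the pair Lamb1 and Lamb2 in Sham_Saline, the lowest mean of the 6 groups, and 88.2% ± 3.91 in LAM, the highest (SD, n = 3 each). The lowest single sample was Sham_Saline replicate 2, at 63.9%, which also had the highest GC slope (0.43). Lamb2 has a GC share of 58.8% and Lamb1 of 52.5%. The mean GC slope was highest in Sham_Saline, at 0.18, and lowest in LAM, at -0.11. The part of GC share in these laminin shares was not tested.

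**Figure D5:**
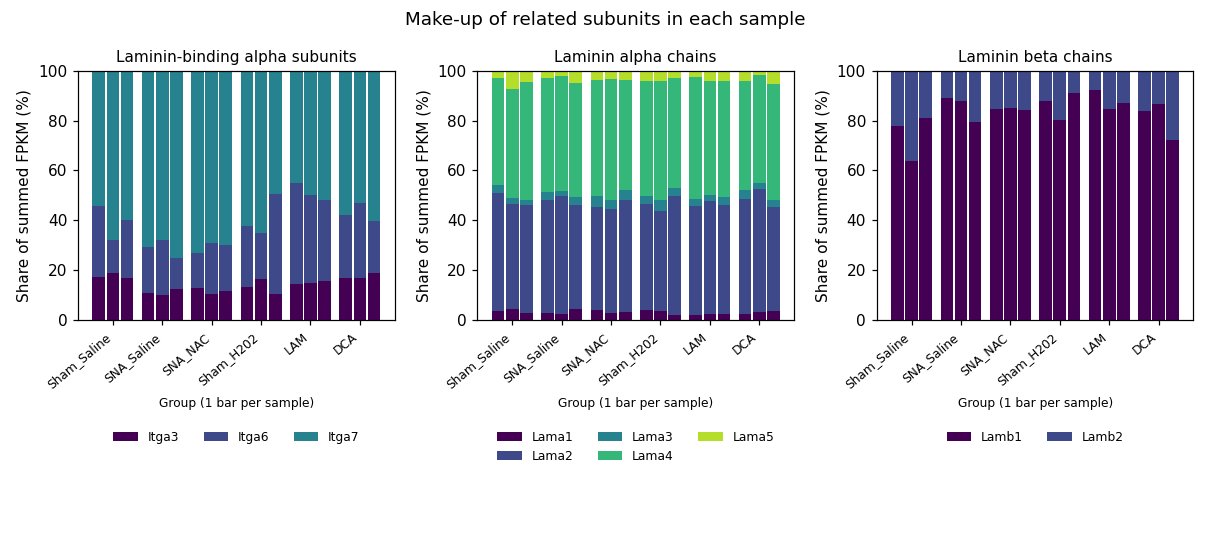
Share of summed FPKM (%) that each subunit holds among Itga3, Itga6 and Itga7, among the 5 laminin alpha chains and within the pair Lamb1 and Lamb2, with 1 stacked bar per sample in replicate order. Itga7 makes up 67.8% or more of the first set in the samples with sciatic injury, and Lama2 and Lama4 dominate the second set in all samples.

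Genes that work with these subunits were counted by 3 lists. Of 29 integrin activators and adhesion adaptors in the table, 2 rose and 0 fell after sciatic injury with saline, against 2.73% of all genes called, while the median of the list was -0.05. Ptk2 (chromosome 15, 73205102 to 73423280), the focal adhesion kinase that signals from clustered integrins, measured 39.7, 38.6 and 36.0 CPM in Sham_Saline and 54.7, 50.8 and 48.4 CPM in SNA_Saline. Every injured sample was above every sham sample (log2 fold change 0.43, edgeR adjusted p = 0.0132). Rap1b (chromosome 10, 117813871 to 117846035), a small GTPase that switches integrins to their active form, measured 229, 174 and 219 CPM in Sham_Saline and 359.6, 355 and 293 CPM in SNA_Saline, again without overlap (log2 fold change 0.69, edgeR adjusted p = 0.0262). With the replicate block the adjusted p of Rap1b was 0.0502. With the GC and length offsets the edgeR adjusted p was 0.000135 for Rap1b and 0.00867 for Ptk2. Both calls were lost in the fit of the 6 samples alone and without SNA_Saline replicate 1 or 2, and that of Rap1b also without Sham_Saline replicate 2, with adjusted p up to 0.309 for Ptk2 and 0.179 for Rap1b.

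In SNA_NAC, Ptk2 measured 51.2, 57.6 and 52.2 CPM and Rap1b 286, 367 and 332 CPM. Both rose against Sham_Saline, Ptk2 by 0.49 (edgeR adjusted p = 0.00435) and Rap1b by 0.66 (adjusted p = 0.0320, and 0.0536 with the replicate block). They were the 2 calls of 29 there, against 3.32% of all genes. In the fit of those 6 samples alone neither passed (adjusted p up to 0.205 for Ptk2), and Rap1b was lost in 8 of 26 alternative fits, among them those without Sham_Saline replicate 2 or 3, SNA_NAC replicate 2 or 3, LAM replicate 2 or DCA replicate 1. In LAM and DCA, Ptk2 stayed within 35.1 to 39.8 CPM, and the list gave 0 calls, against 0% of all genes. Rap1b measured 286, 263 and 263 CPM in LAM, above every Sham_Saline sample. Of all genes, 14.2% were likewise lower in Sham_Saline than in LAM without overlap. In DCA Rap1b measured 235, 243 and 197 CPM, below every LAM sample, as were 9.85% of all genes. In Sham_H202 it measured 262, 205 and 337 CPM, the last within the range of SNA_Saline. That last sample has the lowest GC slope (-0.22), and Rap1b has a GC share of 39.9%. The part of GC share in these Rap1b levels was not tested. Rap1b was the 1 gene of this list called in the difference between the injuries, against 1.61% of all genes. Its difference was 0.96 (edgeR adjusted p = 0.0443, and 0.0770 with the replicate block). The call was lost in 14 of 26 alternative fits, 13 of them with 1 sample left out.

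Of 12 other laminin receptors, which include the dystroglycan complex, 0 passed in any of the 7 comparisons, against 0% to 3.32% of all genes. Their median after sciatic injury was -0.04. Of 29 other basement membrane components and integrin ligands, 0 passed after sciatic injury, against 2.73% of all genes, with a median of -0.13. The 1 call in this list was Spp1, or osteopontin, a secreted ligand of Itgav integrins, between the controls, where 0.0699% of all genes were called. Spp1 measured 266, 282 and 268 CPM in Sham_Saline and 549, 498 and 575 CPM in LAM, a log2 fold change of -0.99 (edgeR adjusted p = 0.00928). The call was lost in the fit of these 6 samples alone and without Sham_Saline replicate 3 or LAM replicate 3 (adjusted p of 0.101 at most). It measured 395, 393 and 335 CPM in SNA_Saline, between these groups.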

How the data were processed

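Counts and FPKM came from stranded mRNA libraries sequenced from one end, 6 to a lane, per the labels' protocols. The deposited counts are whole numbers per gene, whose lowest mean was 10.1, so low genes had been removed. The authors also deposited FPKM for 45904 features. For all 35 members the FPKM was the count times 1 factor per gene and 1 per sample, within 0.01 log2, so both hold the same reads. The submitters' processing notes name TopHat2 2.0.12, Bowtie2 2.2.3, SAMtools 0.1.19, HTSeq 0.6.0, edgeR 3.8.6, limma 3.22.7 and mm10, with no role or order. How strand was used in counting is not given in the sources used here, so reads of overlapping antisense genes cannot be told apart. Columns were matched to samples by name, and those named SNA and Sham were taken as the saline groups, since the other columns name their agent.

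The test was edgeR's quasi-likelihood F test (edgeR 4.0.16, R 4.3.3, TMM factors, filterByExpr, 2-sided) on counts of all 18 samples in 1 fit. All 15730 genes passed the filter. P-values were adjusted over all of them by the Benjamini-Hochberg method, with a threshold of 0.05, in 7 comparisons. CPM are after TMM. The SE was taken from the log2 fold change and F. The common biological coefficient of variation was 17.4%. With 3 samples against 3 an exact permutation test cannot go below 0.1. P-values measure the spread between pools of mice. No replicate pair agreed within counting noise (lowest chi-square per degree of freedom 4.11).

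The members and lists were chosen with earlier results of these data known. Named were members past the threshold in each comparison, or the 2 of smallest p where none passed, the laminin-binding and leukocyte subunits, the main laminin chains, the 3 highest and 3 lowest in FPKM, and up to 4 called genes per list. Itgav, Itgb5, Itgb8 and Itga11 were added after their values were seen, as were the members listed for groups that do not overlap.

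Alternatives were DESeq2 1.42.0, RLE factors, a minimum of 10 counts in every sample (13445 genes), no filter, only the groups of a comparison, the replicate number as a block and leaving out each sample. Offsets for GC share and transcript length (splines with 5 degrees of freedom, longest GENCODE M21 transcript, 15648 genes), with and without the block, were added after seeing the data. The replicate numbers equal the lane numbers in the labels, so same-numbered samples share a lane but not mice. The correlation of their deviations from the group means ran from -0.65 to 0.56 over 18 pairs. Figures were drawn with matplotlib 3.10.9.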

Additional observations from a re-analysis of the deposited data

Results flagged for a closer look

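The change of Itgae after sciatic injury differed from its change after dorsal column injury by 1.78 log2 units, by the test of the difference itself (edgeR adjusted p = 0.0401). Itgae was at 1.35 ± 0.280 CPM in SNA_Saline against 0.725 ± 0.218 CPM in Sham_Saline, and at 0.890 ± 0.180 CPM in DCA against 1.68 ± 0.151 CPM in LAM (SD, n = 3 each). The controls themselves differed by -1.21 log2 units (edgeR adjusted p = 0.104). These values rest on 8 to 46 counts per library, and the call of the difference was lost in 15 of 24 alternative fits.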

How the results depend on the processing

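Itgb1 was higher after sciatic injury in all 26 alternatives, at log2 fold changes from 0.42 to 0.71 with saline and from 0.48 to 0.81 with N-acetyl-cysteine, and its call was lost in 6 and 5 of them. Of 1111 alternative values of 43 single-gene results, 1028 kept direction and side of the threshold, 26 lost and 35 gained a call, and 22 reversed. The cause of these changes was not tested. With the replicate block the adjusted p of Itgb1 after sciatic injury was 0.0497, 0 members passed for the difference between injuries, where 118 genes were called, and 6 genes were called between the controls. Added to the test without offsets, the block changed no other call among the members. Added to the offsets, it lost Itgav with N-acetyl-cysteine (adjusted p = 0.0628) and Itga7 between the controls (0.0819).

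For sciatic injury with saline, with N-acetyl-cysteine, the controls and the difference between injuries, edgeR called 430 (340 higher), 522 (389 higher), 11 (8 higher) and 254 genes (193 higher). DESeq2 called 863 (520 higher), 1223 (622 higher), 1141 and 1723 genes (701 higher), with 1, 2, 5 and 4 members. It called 2 genes after dorsal column injury and 4 after peroxide, none a member. Fits of only the groups compared gave 65 (all higher), 68 (67 higher), 1 and 151 genes and 0 members. With at least 10 counts in every sample the controls gave 4 genes and the difference 0 members, since Itgae was not tested there, and DESeq2 gave Itgae no adjusted p for the difference. The GC and length offsets gave 1171, 1226, 26 (16 higher) and 804 genes and 3, 4, 1 and 4 members, and with the replicate block 1013, 1132, 23 and 641 genes and 3, 3, 0 and 4 members. Leaving out 1 sample gave 174 to 2548, 215 to 5861, 4 to 5009 and 55 to 4600 genes, and 0 to 6, 0 to 11, 0 to 12 and 0 to 12 members, each highest without Sham_Saline replicate 1.

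Reversals were all in uncalled values. After sciatic injury, Itga3 was at 0.25 with the offsets (0.26 with the replicate block) and from -0.40 to 0.076 with 1 sample left out, Lama5 at 0.024 and 0.0059 with the offsets, and Lama4 at -0.00081 with DESeq2, -0.00048 with RLE factors and -0.011 with at least 10 counts. With 1 sample left out Lama2 ran from -0.15 to 0.17, Lama4 from -0.11 to 0.11 and Lamb1 from -0.0043 to 0.13, and Itga7 with N-acetyl-cysteine against saline from -0.056 to 0.20. After peroxide Itga7 was at 0.18 and 0.17 with the offsets and from -0.44 to 0.094 with 1 sample left out, and Itgb1 between the controls at 0.025 and 0.024 with the offsets. Depth limits Itgae, Itgax, Itga2, Itga8, Itga10, Itga11, Itgb7 and Lama3, with few counts in the smaller libraries. All of these but Lama3 had fewer than 10 counts in at least 1 sample.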

Other observations

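An integrin alpha subunit and a laminin chain of the same families, Itgad and Lamb3, were analysed here in the deposited FPKM only, so neither was tested on counts. Lamb3, a beta chain of epithelial laminin, had group means of 0.0377 FPKM in Sham_Saline, 0.0426 in SNA_Saline, 0.0674 in SNA_NAC, 0.0071 in Sham_H202, 0.0066 in LAM and 0.0031 FPKM in DCA. It was listed at 0 in 1 LAM, 2 DCA and 2 Sham_H202 samples. Itgad, a leukocyte subunit that pairs with Itgb2, had group means from 0.0125 FPKM in SNA_Saline to 0.0538 FPKM in Sham_Saline and was listed at 0 in 1 SNA_Saline sample.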
